A study of Rattus norvegicus with 6 samples.

Results

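The genes described here are 5 that bear on the making of fat: Fasn (ENSRNOG00000045636), Scd (ENSRNOG00000013552), Srebf1 (ENSRNOG00000003463), Acly (ENSRNOG00000016924) and Adipoq (ENSRNOG00000001821). They were chosen by name, as 4 genes of fatty acid synthesis and 1 marker of fat tissue. Earlier results of these data were known when they were chosen. They are 5 of the 30562 gene IDs counted. All 5 passed the filter on low counts, which kept 15581 genes. Poly(A) RNA of facial nerve tissue from wild type rats was sequenced 14 days after the nerve was injured. The 6 libraries comprise 3 from the untreated injury model, labelled FNI, and 3 from nerve that had facial nerve injury and then the treatment labelled C-Gel-light. By the title of the series that treatment is a Chlorella hydrogel, a gel holding a green alga that gives off oxygen when lit. All 6 libraries are thus of injured nerve, and the parts of the treatment cannot be told apart. Uninjured nerve, gel without light and light without gel were not analysed here. Nothing in the labels ties a library to an animal of its own, so each p-value rests on the spread between libraries alone, and that spread may be technical. Every library has a different batch label (1 to 3 with C-Gel-light, 4 to 6 in FNI). Batch, if that is what the label marks, and group cannot be told apart. Total counts ran from 22957382 to 28997855 per library. No library was a copy of another of its group.

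Cells make fatty acids from citrate that leaves the mitochondrion. ATP citrate lyase, the product of Acly, splits this citrate to acetyl-CoA in the cytosol. Further along the pathway, fatty acid synthase (Fasn) builds palmitate, and stearoyl-CoA desaturase (Scd) puts a double bond into the saturated products. SREBP-1, the product of Srebf1, is a transcription factor that is freed from its membrane by proteolysis and turns on genes of this pathway, Fasn and Scd among them. In peripheral nerve, Schwann cells make fatty acids for the myelin sheath, while adipocytes of the fat around the nerve use the same enzymes. Adipoq encodes adiponectin, a hormone secreted by adipocytes and used as their marker.

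With C-Gel-light the desaturase Scd was 4.12-fold and the synthase Fasn 1.93-fold the level in FNI, while Srebf1, the regulator, was 1.72-fold lower. Acly, the first enzyme of the pathway, was 1.1-fold the FNI level and did not pass the test. Adipoq differed so much between libraries of a group that its difference between groups could not be measured with any precision. Called at an adjusted p below 0.05 in edgeR's quasi-likelihood F test, 3 of the 5 genes changed, 2 higher and 1 lower. By the same test 14.8% of all tested genes changed, 7.07% higher and 7.7% lower. The 5 were chosen with earlier results known, so that share gives no test of them as a set. The median log2 fold change was 0.95 over the 5 genes and -0.01 over all tested genes. That median of 5 is the value of Fasn itself and is not a shift that the 5 genes share.

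The promoters of the genes that moved in opposite directions are shown as RefSeq places their starts on build GRCr8, a later build than the mRatBN7.2 of the counts. The table held starts for 4 of the 5 genes by symbol (Scd, Srebf1, Acly and Adipoq) and not for Fasn. Each sequence below is the 250 bases before a start, 5′ to 3′ on the strand of the gene. Capitals mark matches to a CCAAT box (CCAAT, bound by NF-Y) or a GC box (GGGCGG, bound by Sp1). The Scd window is chr1:253231732-253231981 on the minus strand. Srebf1 has 2 starts in RefSeq, which are known to give the SREBP-1a and SREBP-1c forms: the upstream one has the window chr10:45529165-45529414 and the downstream one chr10:45519011-45519260, both on the minus strand. The counts are per gene and do not separate these forms.
Scd: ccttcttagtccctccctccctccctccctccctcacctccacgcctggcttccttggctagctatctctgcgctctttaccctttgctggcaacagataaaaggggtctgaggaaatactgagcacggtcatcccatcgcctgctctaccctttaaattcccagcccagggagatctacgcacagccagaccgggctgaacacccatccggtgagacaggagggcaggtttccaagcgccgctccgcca
Srebf1 upstream start: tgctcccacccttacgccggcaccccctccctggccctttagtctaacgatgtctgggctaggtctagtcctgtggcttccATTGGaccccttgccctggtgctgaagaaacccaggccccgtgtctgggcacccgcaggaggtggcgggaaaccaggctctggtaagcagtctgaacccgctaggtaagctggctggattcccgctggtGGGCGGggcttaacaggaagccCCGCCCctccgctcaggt
Srebf1 downstream start: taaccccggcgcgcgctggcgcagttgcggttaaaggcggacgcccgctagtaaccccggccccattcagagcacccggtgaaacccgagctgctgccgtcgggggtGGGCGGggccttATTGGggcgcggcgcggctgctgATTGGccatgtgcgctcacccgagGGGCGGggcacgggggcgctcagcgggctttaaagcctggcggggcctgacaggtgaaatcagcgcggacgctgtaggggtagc
Of 33469 rat promoters of this length, searched on both strands, 34% hold a CCAAT box and 30.5% a GC box. The window of Scd held neither. The upstream Srebf1 window held 1 CCAAT box and 2 GC boxes, and the downstream window 2 of each. The Acly window held 1 CCAAT box and 3 GC boxes, and that of Adipoq 2 CCAAT boxes and no GC box. Of the sterol regulatory element, to which SREBP proteins bind, only the letters TCACNCCAC were searched for. They are in 0.974% of all promoter windows and in none of these 5. The E-box CACGTG (5.59% of all) and the TATA box TATAAA (12.9%) were likewise not in these 5 windows. A match or its lack in so short a window is a description of the letters and says nothing of what binds there.

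Scd had 2785, 2427 and 3828 counts with C-Gel-light (replicates 1 to 3, the order used throughout) and 781, 677 and 863 counts in FNI. Scaled to library size and composition with TMM factors, these were 111, 98.7 and 156 CPM (counts scaled to a library of fixed size) against 27.9, 27.7 and 33.0 CPM. The groups did not overlap, and the lowest library with C-Gel-light lay far above the highest of FNI. Of all tested genes 39.1% had groups that did not overlap, 18.2% with the treated libraries above and 20.8% with them below. The mean was 122 ± 29.9 CPM with C-Gel-light and 29.6 ± 3.00 CPM in FNI (SD, n = 3 per group). The log2 fold change was 2.04 (SE 0.18, 95% interval 1.61 to 2.47, adjusted p = 0.0032 by edgeR). Among the 15581 tested genes this was the 143rd largest rise and the 42nd smallest p-value. Scd has close relatives in the rat genome, among them Scd2, and how the authors' counting divided reads between them is not given in the sources used here.

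Fasn, which encodes the enzyme that builds palmitate, was the other gene that rose. It had 18828, 26086 and 18011 counts with C-Gel-light and 11283, 9715 and 13477 counts in FNI, or 750, 1061 and 732 CPM against 403, 398 and 516 CPM. C-Gel-light replicate 2 was the highest library by a wide margin, and the groups did not overlap. The mean was 848 ± 185 CPM against 439 ± 66.4 CPM (SD, n = 3 per group), a log2 fold change of 0.95 (SE 0.19, 95% interval 0.50 to 1.40, adjusted p = 0.022 by edgeR). The call did not hold without FNI replicate 1 (log2 fold change 0.89, adjusted p = 0.081) or FNI replicate 2 (0.88, adjusted p = 0.061 by edgeR). Over all alternatives the adjusted p of Fasn ran from 2.0e-05 to 0.081.

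Srebf1 went the other way. Its counts were 1835, 2202 and 2582 with C-Gel-light and 3588, 3494 and 4954 in FNI, or 73.1, 89.6 and 105 CPM against 128, 143 and 190 CPM. The groups did not overlap, and the treated libraries were the lower ones. The mean was 89.2 ± 15.9 CPM against 154 ± 31.9 CPM (SD, n = 3 per group), and the log2 fold change was -0.78 (SE 0.19, 95% interval -1.22 to -0.35, adjusted p = 0.035 by edgeR). This call was the least secure of the 3. With replicate 1 or replicate 2 of the treated group left out it did not hold (-0.65 and -0.78 on the log2 scale, adjusted p = 0.089 and 0.090 by edgeR), nor without FNI replicate 1, 2 or 3 (-0.90, -0.83 and -0.60, adjusted p = 0.052, 0.060 and 0.091 by edgeR). Over all alternatives its adjusted p ran from 0.0016 to 0.091.

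Acly had 8357, 9884 and 8203 counts with C-Gel-light and 9105, 6849 and 9583 counts in FNI, or 333, 402 and 333 CPM against 326, 281 and 367 CPM. The ranges overlapped. The mean was 356 ± 39.7 CPM against 324 ± 43.0 CPM (SD, n = 3 per group), with a log2 fold change of 0.14 (SE 0.14, 95% interval -0.19 to 0.46, adjusted p = 0.54 by edgeR). In folds the interval runs from 0.874 to 1.38. The sign depends on the scaling: with library totals in place of TMM factors the log2 fold change of Acly was -0.12, where the median over all tested genes moved to -0.26. Relative to that median, Acly was above it under both scalings, and with library totals Scd (1.80) and Fasn (0.69) were still higher and Srebf1 (-1.03) still lower with C-Gel-light.

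**Figure D1:**
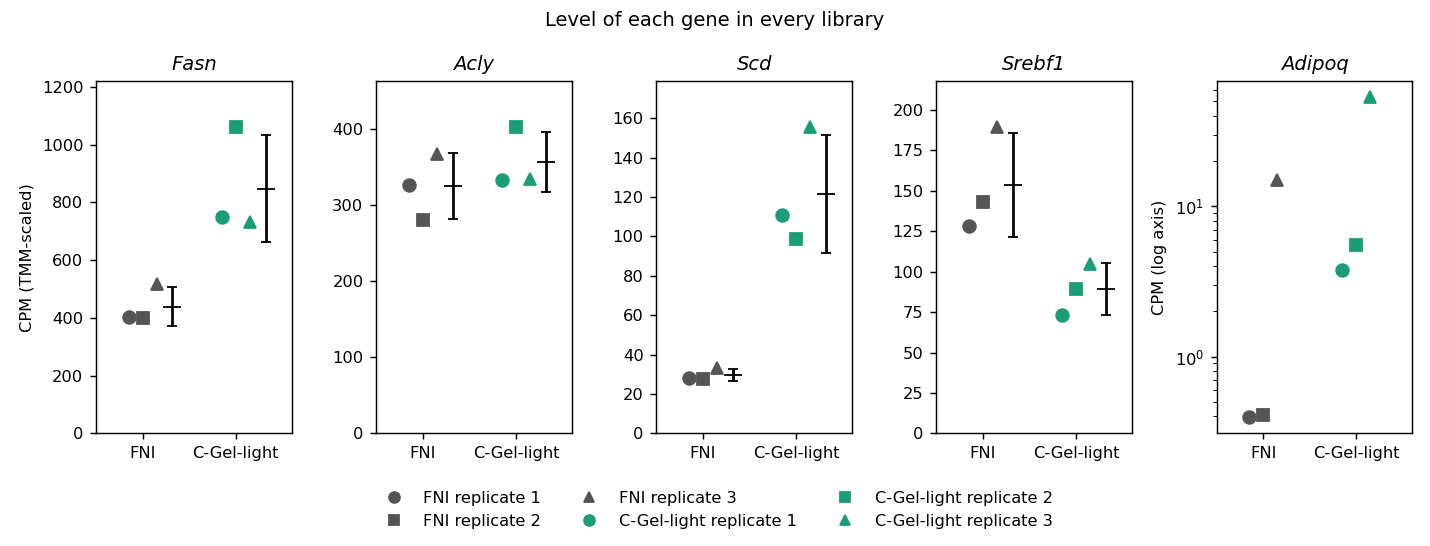
Level of each gene in CPM (y axis, TMM-scaled; log axis for Adipoq only) in each of the 6 libraries, by group (x axis); the bar beside the points is the mean ± SD of 3 libraries, not drawn for Adipoq. For Scd and Fasn the 3 C-Gel-light libraries lie above the 3 FNI libraries, for Srebf1 below them, and for Acly and Adipoq the groups overlap.

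**Figure D2:**
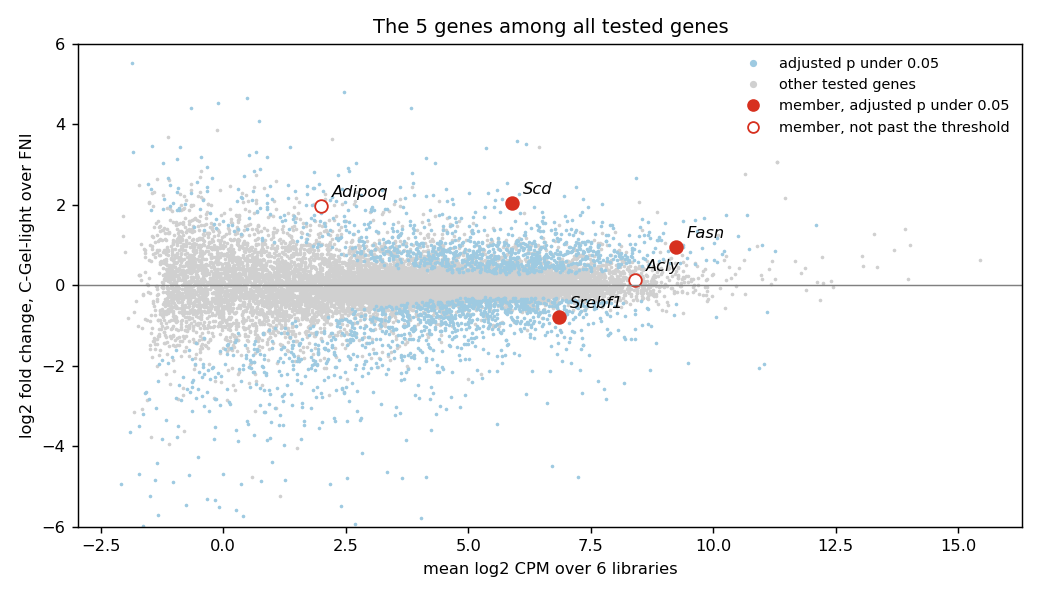
The log2 fold change of C-Gel-light over FNI (y axis) against the mean log2 CPM over 6 libraries (x axis) for all 15581 tested genes, with the 5 genes marked; 20 genes lie beyond the plotted range of 6. Scd (2.04) lies above most genes of its abundance, Fasn (0.95) and Srebf1 (-0.78) nearer to the bulk, and Acly (0.14) close to 0.

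Deposited values scaled by gene length and library total (FPKM) allow levels to be set side by side between genes. In FNI the order of mean FPKM was Acly (77.8 ± 13.4), Fasn (47.4 ± 9.11), Srebf1 (38.0 ± 9.34), Scd (6.90 ± 0.976) and Adipoq (4.04 ± 6.50; SD, n = 3 libraries). The spreads of Fasn and Srebf1 between libraries overlapped there, though Fasn was the higher of the pair within each library. Those of Scd and Adipoq overlapped too. With C-Gel-light the order was Fasn (76.5 ± 16.0), Acly (71.5 ± 8.18), Scd (24.0 ± 7.45), Srebf1 (18.6 ± 4.50) and Adipoq (13.6 ± 18.8). The spreads of Fasn and Acly overlapped, and so did those of Scd, Srebf1 and Adipoq. Within each of these libraries Scd was above Srebf1. Among the tested genes, Scd by FPKM ranked 7354th to 8183rd in the FNI libraries, near the middle, and 1672nd to 2926th with C-Gel-light. Fasn ranked 869th to 1302nd in FNI and 434th to 656th with C-Gel-light, and Srebf1 1116th to 1910th in FNI and 2469th to 3706th with C-Gel-light. Acly stayed among the most abundant genes in all 6 libraries, at ranks 493 to 743.

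Ratios of 2 genes within a library do not depend on how libraries are scaled. The FPKM of Scd was 1.44, 1.04 and 1.40 times that of Srebf1 with C-Gel-light and 0.206, 0.183 and 0.165 times in FNI. Every library with C-Gel-light thus held more Scd than Srebf1 per length, and every FNI library less. The log2 ratio of their counts was 0.44 ± 0.26 against -2.36 ± 0.16 (SD, n = 3 per group), a difference of 2.80. The two-sided exact permutation test gave p = 0.1, the lowest value that groups of 3 can give. Every treated library was above every FNI library in Scd and below it in Srebf1. The separation of this ratio, and so its p-value, was therefore fixed in advance and is no further support.

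The FPKM of Fasn was 4.49, 5.18 and 3.05 times that of Srebf1 with C-Gel-light and 1.38, 1.22 and 1.19 times in FNI. Against Acly, an earlier enzyme, Fasn stood at 1.01, 1.19 and 0.989 times with C-Gel-light and 0.558, 0.639 and 0.633 times in FNI. The synthase and the lyase were thus near parity per length in each treated library, and the synthase was the lower of the pair in each FNI library. On the log2 scale of counts the differences between groups were 1.72 for Fasn to Srebf1, 0.80 for Fasn to Acly, 1.88 for Scd to Acly, -0.92 for Srebf1 to Acly and -1.08 for Fasn to Scd. In these 6 pairs of the 4 lipogenic genes, Scd to Srebf1 included, the groups did not overlap, each with an exact permutation p of 0.1, or 0.17 after Benjamini-Hochberg adjustment over all 10 pairs of the 5 genes. Over all pairs of the 15483 tested genes with a count in every library, the groups did not overlap in 39.2%. Pairs that share a gene are not independent. For Scd to Srebf1 and Fasn to Srebf1 the separation followed from that of the single genes, which went in opposite directions. The other 4 pairs, those with Adipoq, overlapped between the groups (exact permutation p = 0.3 to 0.6).

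**Figure D3:**
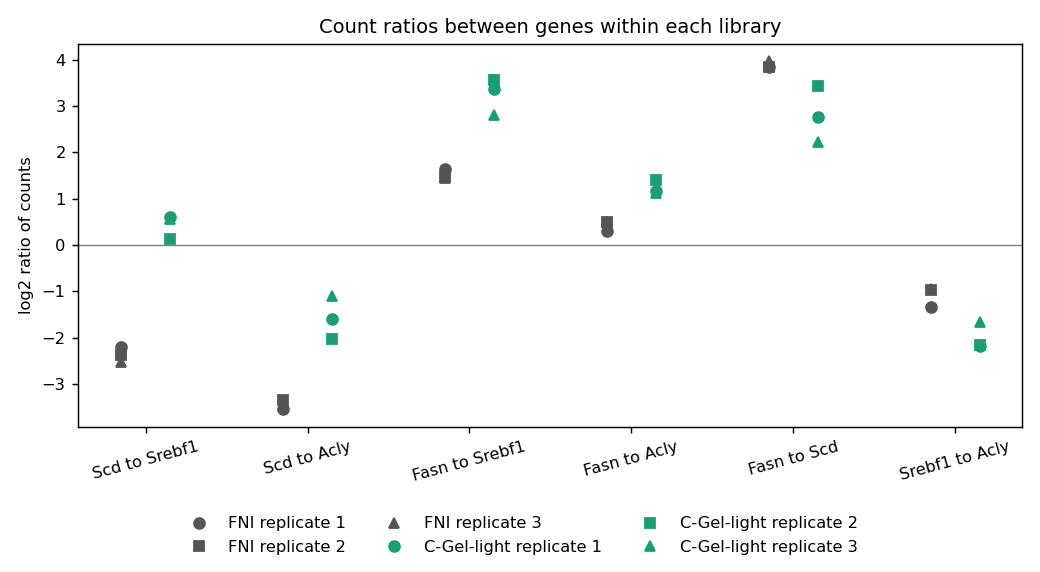
The log2 ratio of counts (y axis) between the genes of each of 6 pairs (x axis), 1 point per library. In all 6 pairs the C-Gel-light libraries lie apart from the FNI libraries, with the largest difference between group means for Scd to Srebf1 (2.80).

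Adipoq differed widely between libraries of the same group, and the groups overlapped. It had 94, 137 and 1317 counts with C-Gel-light and 11, 10 and 394 counts in FNI, or 3.74, 5.57 and 53.5 CPM against 0.393, 0.410 and 15.1 CPM. Replicate 3 of each group was far above the other libraries of that group, and FNI replicate 3 lay above C-Gel-light replicates 1 and 2. The counts of 11 and 10 carry 95% Poisson intervals of 5.49 to 19.7 and 4.80 to 18.4, which cover counting error only. The log2 fold change was 1.98 (SE 1.52, 95% interval -1.63 to 5.59, adjusted p = 0.41 by edgeR). It was -0.17 without C-Gel-light replicate 3 (adjusted p = 0.95) and 5.69 without FNI replicate 3 (adjusted p = 0.11 by edgeR). Within groups, the SD of its log2 CPM was 2.50, at percentile 99.89 of the tested genes, against 0.26 for Fasn, 0.26 for Scd, 0.28 for Srebf1 and 0.18 for Acly. In bulk tissue, fewer cells of a type and less RNA per cell cannot be told apart. Other markers of fat, nerve or muscle were not used here, since the files do not pair IDs with names.

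The lipogenic genes were read beside this marker, library by library. Within FNI, replicate 3 was highest in Adipoq and also in Fasn, Scd, Srebf1 and Acly. Within C-Gel-light, replicate 3 was highest in Adipoq, Scd and Srebf1 but lowest in Fasn, with 732 CPM. Across the groups, C-Gel-light replicates 1 and 2 were above FNI replicates 1 and 2 in Adipoq, Scd and Fasn alike. Those FNI libraries had 0.393 and 0.410 CPM of Adipoq. Only FNI replicate 3 departed from that order of treated above FNI libraries, and in Adipoq alone. FNI replicate 3, with 15.1 CPM of Adipoq, had 33.0 CPM of Scd and 516 CPM of Fasn. C-Gel-light replicates 1 and 2, with less Adipoq (3.74 and 5.57 CPM), had 111 and 98.7 CPM of Scd and 750 and 1061 CPM of Fasn.

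Without replicate 3 of either group, a setting chosen after the Adipoq values were seen, 2 libraries remained per group. Of the 4 lipogenic genes 1, Scd, was then called, as higher, where 3.93% of all tested genes were called and 1.82% were called higher. The log2 fold change of Scd was then 1.92 (SE 0.12, adjusted p = 0.0098 by edgeR), close to that with all libraries. Fasn had 1.19 (adjusted p = 0.056) and Srebf1 -0.73 (adjusted p = 0.066 by edgeR), of like size but no longer past the threshold. Adipoq had 94 and 137 counts with C-Gel-light and 11 and 10 counts in FNI in the 4 libraries left, a description with no test, since the libraries were left out for their Adipoq value. The part of Adipoq, and so of fat tissue, in the other differences was not tested.

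**Figure D4:**
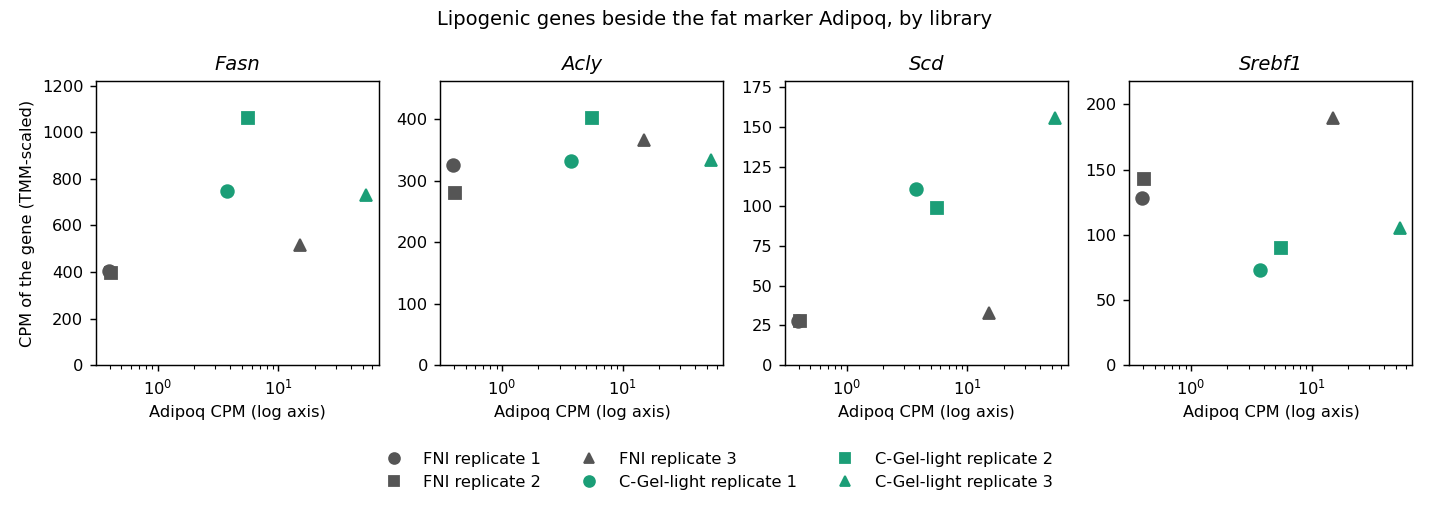
CPM of each lipogenic gene (y axis, from 0) against CPM of Adipoq (x axis, log axis) in the 6 libraries. FNI replicate 3, at 15.1 CPM of Adipoq, lies to the right of C-Gel-light replicates 1 and 2, and below them for Fasn and Scd. FNI replicates 1 and 2 lie to the left of those 2 libraries, and also below them for Fasn and Scd.

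**Figure D5:**
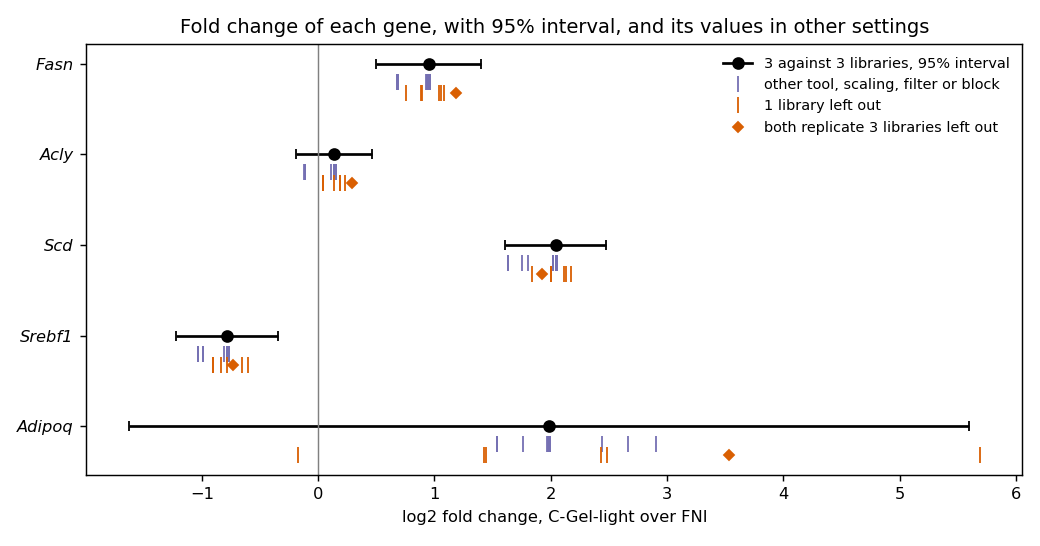
The log2 fold change of C-Gel-light over FNI (x axis) for each gene (y axis), with its 95% interval from 6 libraries, and its values in 19 other settings. Those of Scd lie between 1.63 and 2.17 and those of Srebf1 between -1.03 and -0.60, whereas those of Adipoq run from -0.17 to 5.69.

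Over all 6 libraries, the genes whose log2 CPM went most like that of Fasn, among 13037 others whose mean log2 CPM was 1 or more, were ENSRNOG00000054549 (Pearson r = 0.991) and ENSRNOG00000019189 (r = 0.991). The libraries fall into 2 groups that differ in Fasn, so such an r mainly shows a shared difference between groups, and 438 genes (3.36%) had an r above 0.9. The first of these IDs had 183, 249 and 195 CPM with C-Gel-light and 95.9, 88.5 and 127 CPM in FNI, with the same libraries highest in each group as for Fasn. Its log2 fold change was 1.01 (adjusted p = 0.016 by edgeR), and that of the other was 0.83 (adjusted p = 0.035 by edgeR). Both IDs were picked for their likeness to Fasn in these same libraries. Their library order and fold changes are therefore descriptions and no further support. For Adipoq only 44 genes (0.338%) had an r above 0.9. The leading one, ENSRNOG00000020793 (r = 0.998), ran only from 22.2 to 24.6 CPM over the 6 libraries. It had 541 to 622 counts per library and was picked as the best of 13037 genes, so its r is a description only and was not tested against counting error.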

How the data were processed

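RNA of rat facial nerve tissue was measured in 3 C-Gel-light and 3 FNI libraries, grouped and numbered by their titles. The authors deposited a table of raw counts by Ensembl ID and, for each library, FPKM values. Build mRatBN7.2, the aligner STAR 2.4.2a, the counter RSEM 1.2.29, the trimmer fastp 0.22.0 and edgeR 3.28.1 appear, with no step given for any of them, per the submitters' processing notes. The deposited FPKM equalled the count scaled by the library total and a gene length that was whole within 0.01 for 22042 of 22044 genes, so it is not a separate measurement.

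Counts of all genes were filtered with filterByExpr (minimum count 10), scaled with TMM factors and tested by quasi-likelihood F in edgeR 4.0.16 under R 4.3.3 (robust dispersions, group as the only term, two-sided, Benjamini-Hochberg adjusted over all 15581 genes, threshold 0.05). The script was tested on simulated data. SE is the log2 fold change over the square root of F. The log2 CPM used a prior count of 2. No library copied another of its group: chi-square between their counts was 27.0 to 175 times its degrees of freedom.

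Symbols of the 5 genes came with the rule that chose them. The RefSeq table held 0 Ensembl IDs, so the 11 lists of other lipid, fat, nerve, muscle and gland genes were not used here. The genes named were all 5 members and, by their Pearson r with Fasn or Adipoq, the leading IDs. Members, lists and motifs were chosen with earlier results of these data known. Alternatives were DESeq2 1.42.0, limma 3.58.1 (voom, and log2 FPKM with a pseudocount of 1 or 0.1), other scalings and filters, a replicate block and leaving out libraries.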

Additional observations from a re-analysis of the deposited data

How the results depend on the processing

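Of the 19 alternatives, Scd passed the threshold in 19, Fasn in 15, Srebf1 in 13 and Acly in 0; none of these turned the direction of Scd, Fasn or Srebf1, which was hardly possible where the groups do not overlap. Against 2301 genes changed, DESeq2 gave 3618, library totals 3937, an adjusted p under 0.1 gave 3876, and log2 FPKM with a pseudocount of 1 or 0.1 gave 3654 and 3741. Of all 2301 changed genes 1101 were higher, but 645 of 3937 with library totals, 615 of 3654 and 632 of 3741 with FPKM, and 372 of 2181 with FPKM and no filter. Acly reversed in these settings scaled by totals, to -0.12 with totals and to -0.11 with FPKM at either pseudocount and without a filter (-0.11); the median over all tested genes was -0.26 with totals. Fasn was 0.67 by FPKM without a filter (adjusted p = 0.071 by limma).

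With any single library left out, and so fewer samples, there were 797 to 1726 changed genes and 1 to 3 of the 5 genes, with log2 fold changes of 0.76 to 1.08 for Fasn, -0.91 to -0.60 for Srebf1 and -0.17 to 5.69 for Adipoq. The difference in the log2 ratio of Scd to Adipoq ran from -2.59 to 0.064 in these fits, with 0.064 without C-Gel-light replicate 3. Without both replicate 3 libraries, a setting chosen after seeing the data, 620 genes were called, and Fasn was 1.19 and Srebf1 -0.73. Adipoq was 3.53 there, which is no test, since its own values chose the libraries left out.

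With the replicate number as a block 1999 genes and 4 of the 5 were called, Adipoq among them (log2 fold change 2.66, adjusted p = 0.022 by edgeR). That is the lowest adjusted p of Adipoq over its alternatives, and the highest is 0.95. Elsewhere Adipoq passed only without both replicate 3 libraries, which is no test of it. The labels do not say that the numbers pair the libraries. Same-numbered libraries deviated together with correlations of -0.06, 0.03 and 0.09, and 3 of 6 correlated best with their own number. With 3 libraries per group these values cannot settle whether the numbers mark pairs. TMM factors were 0.866 to 0.983 with C-Gel-light and 1.05 to 1.14 in FNI, so this scaling differed between the groups. What moved the other values was not tested. DESeq2 gave no adjusted p for Adipoq. The gene lists could not be counted for want of names. Depth limits only Adipoq, with 10 and 11 counts in 2 FNI libraries.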
